A study of Mus musculus with 20 samples.

Results

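The mice of 2 breeding lineages fed the same high-fat diet were compared directly: 8 arrays titled HFD O3, called HFepa, against 6 titled HFD Cont, called HFoleic, 14 of the 20 arrays of the series. Members were taken by these titles and not by any measured value. HFepa mice were F3 males of a C57bl/6J lineage in which the growing diet of each generation held fish oil rich in eicosapentaenoic acid (EPA), given in the labels as the treatment n-3PUFA. HFoleic mice were F3 males of the same strain from a control lineage that received high-oleic sunflower oil in its place, given as Control fatty acid. Both groups were then fed one diet high in fat and sucrose (HFD), so the supplement of the lineage was the named difference between them. The other group, Ref, was the control lineage on a low-fat diet (STD Cont, 6 arrays), and entered the fit only for its share in the estimate of the spread. Before the fit its arrays also shared in the normalization, in the filter on dim probes and in the choice of the probe that stands for a gene. Each array was hybridized with Cy3-labelled RNA of the epididymal visceral adipose tissue (VAT) of 1 mouse. The design planned 8 mice in each group and RNA of lower integrity was left out, so the HFoleic animals are those that passed. The labels do not say how many litters or founders each lineage had, so the mice are replicates within 1 lineage each, and p-values measure the spread between these mice and not between lineages.

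Epididymal fat of a mouse on a high-fat diet holds enlarged adipocytes among which macrophages gather, many around dying adipocytes, where they take up lipid and express genes such as Trem2, Gpnmb and Mmp12. Adipocytes store triglyceride and free cholesterol, and synthesis of cholesterol from acetyl-CoA is switched by the SREBP2 transcription factor according to the sterol content of membranes. Long-chain n-3 fatty acids such as EPA are ligands or substrates in several of these systems, among them the fatty acid receptor Ffar4 and the enzymes that make eicosanoids. The tissue was measured whole, so fewer cells of a type and less RNA per cell cannot be told apart in any value below.

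The labelled tissue matched its markers. The 8 adipocyte markers, Adipoq, Cidec and Fabp4 among them, had a mean log2 level of 16.36 to 16.97 in HFoleic and 16.44 to 16.99 in HFepa mice, near the top of the scale. The software marked 66.1 to 71.9% of the spots of an array as well above background and none as saturated. Arrays lay on 3 slides, with 3, 1 and 2 HFoleic arrays and 3, 3 and 2 HFepa arrays, so slide and lineage were not confounded. The HFoleic array of slide 2 was HFoleic 4, so every difference given within slide 2 rests on that 1 mouse for HFoleic. Markers of neighbouring organs stood higher on some arrays: the mean log2 level of the testis markers was 8.51 in HFoleic 5 and 7.84 in HFepa 4, and that of the epididymis markers 8.62 in HFepa 2 and 7.21 in HFoleic 5, with 1 of 7 epididymis markers bright enough on enough arrays to be tested. A mouse is named here by its group and the replicate number of its title.

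Of 39390 probes, 1 differed between the lineages at an adjusted p under 0.05 (limma, Benjamini-Hochberg over all probes), which is 0.00254%. It belonged to Anxa6, annexin A6, a calcium-dependent protein of membranes that has been linked to the handling of cholesterol in late endosomes. The next adjusted p was 0.117 and was shared by 478 probes. Taking 1 probe a gene, the one with the brightest mean, none of 25618 genes passed. At an unadjusted p under 0.05 there were 5331 genes (20.8%), of which 2766 (10.8%) were higher in HFepa and 2565 (10%) lower, and these last shares are the background for every list below. Most differences were small, with 25th and 75th percentiles of -0.09 and 0.12 on the log2 scale over all genes. The tails were not even, and 160 genes differed by more than 1 on the log2 scale, 139 of them lower in HFepa and 21 higher.

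The number of probes called turned on the slide and on single mice. With the slide as a block in the same fit, 1297 probes (3.29%) passed, 613 higher and 684 lower in HFepa. Without HFepa 1 there were 2851, without HFoleic 1 there were 1664, without HFepa 6 there were 2, and leaving out any other HFepa or HFoleic mouse gave 0. Within 1 slide at a time none passed. With the slide as a block, 432 genes by their brightest probe were called higher (1.69%) and 379 lower (1.48%). A call with the slide as a block is named as such below, and all other genes named had an adjusted p of 0.117 or more in the fit without it.

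**Figure D1:**
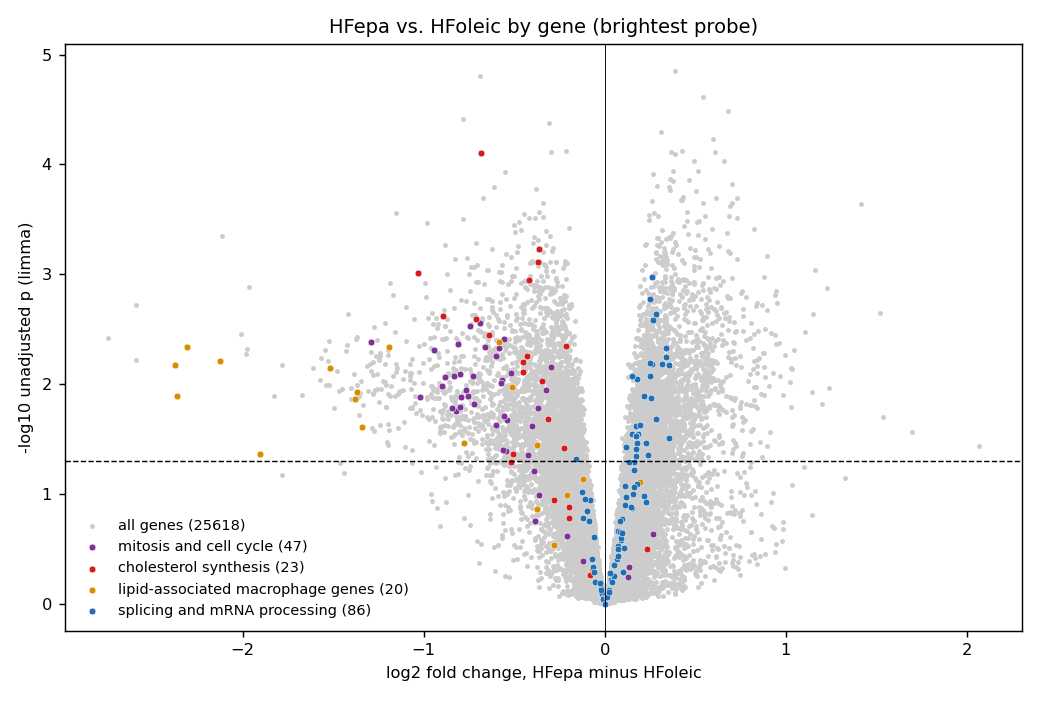
Each point is 1 of 25618 genes by its brightest probe, with the log2 difference HFepa minus HFoleic on the horizontal axis and -log10 of the unadjusted p of limma on the vertical axis. Members of the mitosis, cholesterol synthesis and lipid-associated macrophage lists lie mostly left of zero and splicing genes mostly right of it, and 139 genes lie beyond -1 against 21 beyond 1. The called Anxa6 probe is not the gene's brightest and is not drawn.

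Anxa6 rose in the HFepa lineage by the called probe and not by the other. The called probe reads a transcript listed as ENSMUST00000148298 and lies at chr11:54804707-54804766 on the minus strand (mm9, as the files give it). The second probe, listed under the RefSeq transcript NM_013472, lies 12091 bases further along the gene at chr11:54792616-54792675. Which exon or intron each lies in was not annotated in the tables used here. The probes are shown because they split the only gene called; the first is given whole and the second by its first 30 bases.
Anxa6 called probe: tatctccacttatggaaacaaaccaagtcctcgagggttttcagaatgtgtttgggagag
Anxa6 second probe, first bases: ccacataaccctgcctgacttgagctttgt
On the called probe the lowest, median and highest log2 level were 10.22, 10.27 and 10.53 in HFoleic and 10.59, 10.77 and 10.91 in HFepa. All HFepa mice were thus above all HFoleic mice. The log2 difference was 0.43 with a standard error (SE) of 0.06 (adjusted p = 0.0327), a fold of 1.34. It was 0.41, 0.48 and 0.44 within the slides and 0.40 to 0.48 over 35 alternative settings, and the call was kept in 12 of them.
The second probe was far brighter. Its levels were 15.38, 15.45 and 15.59 in HFoleic and 15.03, 15.30 and 15.48 in HFepa on the log2 scale. The groups overlapped there and the log2 difference of -0.16 (SE 0.10) had the opposite sign. Of the 11 annexins tested, 3 were lower at an unadjusted p under 0.05 and none was higher. These were Anxa1, an inhibitor of phospholipase A2 activity in inflammation, with a log2 difference of -0.58, Anxa2, a partner of plasminogen at the cell surface, with -0.46, and Anxa5, which binds phosphatidylserine, with -0.21.

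In 91 genes (0.355%) no HFepa array overlapped any HFoleic array, 39 of them higher in HFepa (0.152%) and 52 lower (0.203%). Their median absolute log2 difference was 0.33, so separation came mostly with small differences. Ccdc3 had the lowest p among those with a gene symbol, and encodes a secreted protein made by adipocytes and endothelial cells. Its log2 level was 8.29, 8.40 and 8.60 (lowest, median, highest) in HFoleic and 7.32, 7.75 and 8.01 in HFepa. Every HFepa mouse was below every HFoleic mouse, with HFepa 3 lowest. The log2 difference was -0.69 (SE 0.12), and -0.72, -0.64 and -0.90 within the slides, with an adjusted p of 0.0106 with the slide as a block. Psph, the last enzyme of serine synthesis, ran from 10.80 to 11.36 in HFoleic and from 9.79 to 10.76 in HFepa. Sec13, a coat protein of vesicles leaving the endoplasmic reticulum, ran from 10.75 to 10.93 and from 10.18 to 10.68. Slc30a6, a zinc transporter of the Golgi, and Vkorc1l1, a reductase of vitamin K, showed log2 differences of -0.21 and -0.34. Ndc1, a nuclear pore protein, had one of -0.48, and the histone genes Hist1h2bm and Hist2h3b had -0.42 and -0.53.

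Genes higher in HFepa without overlap included several that act on chromatin or RNA. Hdac4, a class IIa histone deacetylase, had log2 levels of 9.54, 9.64 and 9.74 in HFoleic and 9.88, 10.04 and 10.30 in HFepa. The lowest HFepa mouse, HFepa 6, was still above every HFoleic mouse. The log2 difference was 0.43 (SE 0.09), with 0.46, 0.40 and 0.48 within the slides and the same sign on 3 of 3 probes. Kmt2a, a histone methyltransferase, ran from 10.32 to 10.55 in HFoleic and from 10.57 to 10.84 in HFepa on its brightest probe. Its 3 probes had log2 differences from 0.003 to 0.29, and 1 of them passed the unadjusted threshold. Ints6, a subunit of the Integrator complex that cuts nascent RNA, had a median log2 level of 9.57 in HFoleic and 9.89 in HFepa. Sgms1, which makes sphingomyelin from ceramide, had a median log2 level of 10.81 in HFoleic and 11.28 in HFepa with a log2 difference of 0.49. Pth1r, the receptor for parathyroid hormone, differed by 0.45, Tob2, which slows cell growth, by 0.51, and Dzip1, a protein of the cilium base, by 0.62. Several genes had probes of the opposite sign, and for Ints6 and Sgms1 this was 1 probe, at -0.14 and -0.09, and for Dzip1 2 of 5 probes, the lowest at -0.03.

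**Figure D2:**
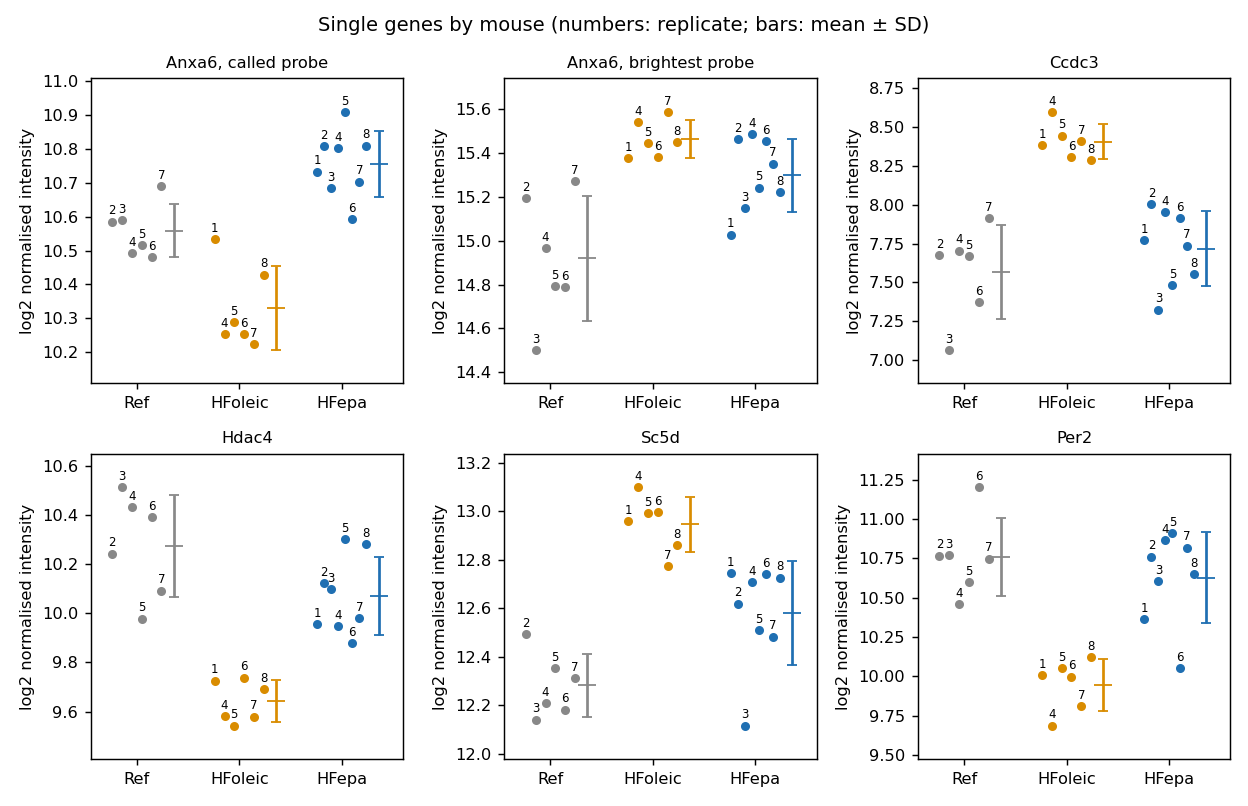
Log2 normalized intensity of 6 probes in every mouse, with the replicate number beside each point and mean ± SD per group (6 Ref, 6 HFoleic and 8 HFepa mice). The called Anxa6 probe, Ccdc3, Hdac4 and Sc5d show no overlap between HFoleic and HFepa, while the bright Anxa6 probe and Per2 do overlap.

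Described by 29 gene lists, the difference had more of the lists' members past the unadjusted threshold below zero than above it in the lists of macrophages, dividing cells, cholesterol synthesis and matrix, and more above zero in those of splicing, chromatin enzymes and adipocyte regulators. No list had a gene called without the slide as a block. The lists were chosen with results of these mice known, so their counts are a description beside the background of 10.8% higher and 10% lower. Besides the 3 members of a list with the smallest p and a set of genes the study discusses, the members named below were chosen after their values were seen, for their role.

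**Figure D3:**
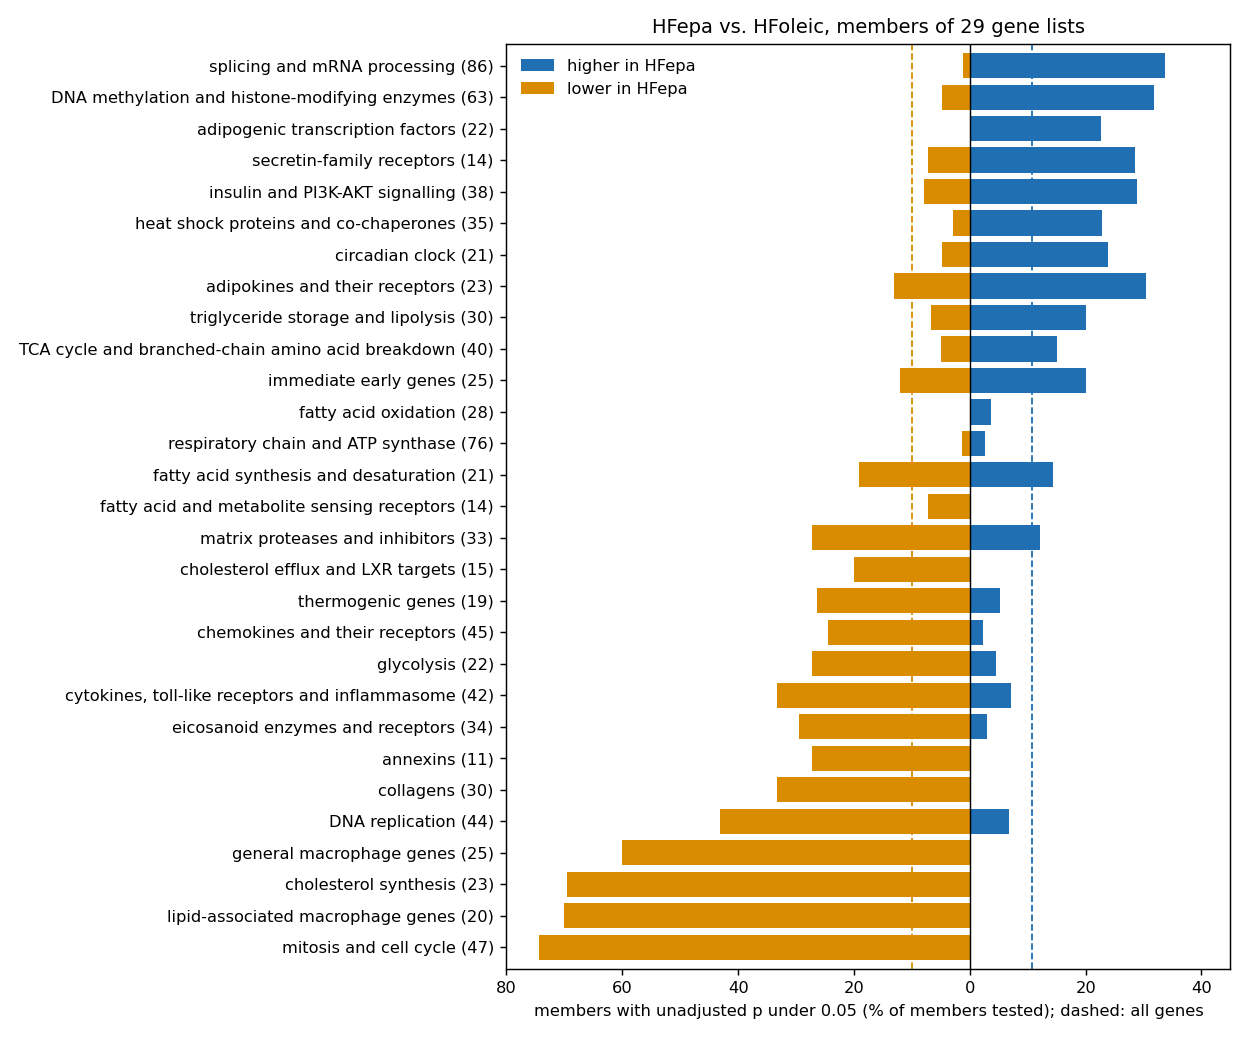
For each of 29 gene lists the bars give the percent of its tested genes at an unadjusted p under 0.05, to the right for higher and to the left for lower in HFepa, with dashed lines at the share over all genes (10.8 and 10%). Mitosis reaches 74.5% on the lower side and splicing 33.7% on the higher side.

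Cholesterol synthesis was lower in the HFepa lineage through most of its steps. Of 23 genes tested, 16 were lower at an unadjusted p under 0.05 (69.6%, against 10% of all genes), none was higher, and the median log2 difference was -0.37. Lss, which closes squalene epoxide to lanosterol, had log2 levels of 9.38, 9.91 and 10.19 in HFoleic and 8.85, 9.20 and 9.71 in HFepa. The overlap came from HFoleic 1, at 9.38, and from HFepa 1 and HFepa 6, at 9.71 and 9.48. Its log2 difference was -0.68 (SE 0.14), with -0.51, -0.997 and -0.79 within the slides and an adjusted p of 0.0268 with the slide as a block. Sc5d, the sterol desaturase near the end of the pathway, did not overlap. It ran from 12.77 to 13.10 in HFoleic and from 12.12 to 12.74 in HFepa, a log2 difference of -0.37 (SE 0.09). Hsd17b7, a ketoreductase of the pathway, also differed by -0.37. Among the other enzymes, Dhcr7, which makes cholesterol in the last step, had a log2 difference of -0.89 (SE 0.26), Nsdhl -0.71, Fdps -0.64 and Idi1 -0.42. Insig1, which holds SREBP2 in the endoplasmic reticulum and is itself a target of it, had one of -1.03 (SE 0.27). Sqle, Hmgcs1 and Cyp51 did not pass the unadjusted threshold, with -0.28, -0.20 and -0.20, and Fdft1 was the 1 member above zero, with 0.23 (SE 0.23). With the slide as a block 8 of the 23 were called lower, against 1.48% of all genes. Without HFepa 1 that number was 12, beside 1174 called lower over all genes. Without HFoleic 1 it was 12 as well, beside 495 over all genes. A mixed list of cholesterol efflux, cholesterol handling, the LXR receptors and their targets had a median log2 difference of 0.00 over 15 genes, with 3 lower. The lower ones were Npc2 at -0.34, Lipa at -0.78 and Soat1 at -0.91, and Lipa is also in the lipid-associated macrophage list. The efflux transporters Abca1 and Abcg1 had 0.004 and 0.08.

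Per mouse, the mean log2 level of the cholesterol genes was 10.54, 11.26, 11.06, 11.01, 10.83 and 10.88 in HFoleic 1, 4, 5, 6, 7 and 8. It was 10.90, 10.54, 10.12, 10.57, 10.34, 10.75, 10.49 and 10.57 in HFepa 1 to 8. HFoleic 1 lay among the HFepa mice, and HFepa 1 was the one HFepa mouse inside the range of the other 5 HFoleic mice. The median of the list within each slide was -0.17, -0.65 and -0.58.

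The starts of 2 of these genes and of 3 genes of dividing cells are printed to show where a promoter word stands in members of lists that were lower, Mad2l1 being one without it: 250 bases before the transcription start (RefSeq, GRCm38.p6), 5′ to 3′ on the gene's strand, with CCAAT, the letters of the NF-Y site, in capitals on either strand (ATTGG on the other).
Lss, chr10:76531355-76531604, plus strand: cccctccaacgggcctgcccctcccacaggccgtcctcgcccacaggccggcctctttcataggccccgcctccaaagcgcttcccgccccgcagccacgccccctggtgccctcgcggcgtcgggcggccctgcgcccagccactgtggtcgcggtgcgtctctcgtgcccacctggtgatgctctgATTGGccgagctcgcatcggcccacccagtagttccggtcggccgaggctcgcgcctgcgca
Hsd17b7, chr1:169969206-169969455, minus strand: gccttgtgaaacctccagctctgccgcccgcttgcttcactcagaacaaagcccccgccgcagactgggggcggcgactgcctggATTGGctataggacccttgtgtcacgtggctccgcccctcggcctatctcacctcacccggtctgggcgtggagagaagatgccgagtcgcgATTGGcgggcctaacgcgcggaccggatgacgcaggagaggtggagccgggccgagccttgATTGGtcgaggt
Mad2l1, chr6:66534971-66535220, plus strand: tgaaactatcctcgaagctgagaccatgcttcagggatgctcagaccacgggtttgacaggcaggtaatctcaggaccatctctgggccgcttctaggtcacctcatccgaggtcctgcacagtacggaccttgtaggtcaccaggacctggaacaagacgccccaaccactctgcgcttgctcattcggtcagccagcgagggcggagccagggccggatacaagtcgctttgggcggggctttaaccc
Mki67, chr7:135716380-135716629, minus strand: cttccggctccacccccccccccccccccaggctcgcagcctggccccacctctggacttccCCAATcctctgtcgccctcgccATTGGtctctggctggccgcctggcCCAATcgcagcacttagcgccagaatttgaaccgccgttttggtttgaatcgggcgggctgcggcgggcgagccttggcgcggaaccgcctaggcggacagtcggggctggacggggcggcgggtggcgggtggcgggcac
Top2a, chr11:99024190-99024439, minus strand: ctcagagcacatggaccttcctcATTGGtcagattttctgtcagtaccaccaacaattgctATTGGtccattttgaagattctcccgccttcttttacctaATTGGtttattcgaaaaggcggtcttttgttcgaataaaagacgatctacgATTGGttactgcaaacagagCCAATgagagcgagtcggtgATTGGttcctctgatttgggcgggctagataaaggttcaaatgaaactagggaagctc
CCAAT was in 16 of the 20 windows found for 17 cholesterol genes (80%) and in 27 of the 43 windows found for 38 mitosis genes (62.8%), against 11120 of 32851 windows of all genes (33.8%). It was also in 14 of 25 windows of the clock genes (56%), more of which were higher than lower, so the word was not particular to the lists that were lower. TTTGAA, the letters of the cell cycle homology region, was in 12 of 43 mitosis windows (27.9%) and in 16% of all. TCACNCCA, a form of the sterol element read by SREBP, was in 3 of 20 cholesterol windows and in 3.67% of all. Both strands were searched, the last letters of TCACNCCA can be the first of CCAAT, and a match is a description of letters and not a bound site.

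Genes of dividing cells were lower in HFepa. Of 47 mitosis and cell cycle genes, 35 were lower at an unadjusted p under 0.05 (74.5%), none was higher, and the median log2 difference was -0.57. Kif20a, a kinesin of cytokinesis, had log2 levels of 7.83, 8.43 and 8.91 in HFoleic and 7.24, 7.60 and 8.51 in HFepa. HFepa 1 and HFepa 6 held the highest HFepa values, 8.51 and 8.14, and HFoleic 1 the lowest HFoleic value. Kif20a had a log2 difference of -0.69 (SE 0.20), Cdca3, needed for entry into mitosis, -0.74 (SE 0.22) and Mad2l1, of the spindle checkpoint, -0.56 (SE 0.17). Mki67 and Top2a, general marks of proliferation, had -0.82 (SE 0.32) and -0.84 (SE 0.32), and Cdk1, the kinase that drives mitosis, -0.81 (SE 0.25). The kinases Cdk4 and Cdk2, which act before mitosis, had -0.01 and 0.02. In the DNA replication list 19 of 44 genes were lower (43.2%) and 3 higher, with a median of -0.19. Its lowest p were those of Prim2, of the primase, with -0.40, Gins1, of the replicative helicase, with -0.57, and Tyms, which makes thymidylate, with -0.36. With the slide as a block 6 mitosis genes were called, against 1.69% of all genes called higher and 1.48% lower. Without HFepa 1 that number was 21, beside 792 called higher and 1174 lower over all genes. Without HFoleic 1 it was 12, beside 623 and 495 over all genes. Within the slides the median of the mitosis list was -0.20, -1.05 and -0.95.

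The list of lipid-associated macrophage genes had the median farthest from zero of the 29 lists. Of 20 genes of lipid-associated macrophages, 14 were lower in HFepa (70%), none was higher, and the median log2 difference was -0.99. Trem2, the lipid receptor that marks these cells, had log2 levels of 12.39, 14.02 and 14.87 in HFoleic. In HFepa they were 11.14 at the median, 9.53 in HFepa 3 and 15.15 in HFepa 1, so the highest and the lowest mice of all 14 were both HFepa. The log2 difference was -2.12 (SE 0.69), with an adjusted p of 0.0842 with the slide as a block. Atp6v0d2, a proton pump subunit of such cells, differed by -2.31 (SE 0.72), Gpnmb, a glycoprotein of lysosome-rich macrophages, by -2.37 (SE 0.78), and Mmp12, macrophage elastase, by -2.36 (SE 0.86). Lgals3, galectin-3, differed by -1.19 and Ctss, a cathepsin, by -1.52. The 6 members that did not pass the unadjusted threshold were Lpl at -0.12, Apoe at 0.20, Cd63 at -0.21, Plin2 at -0.37, Cd9 at -0.28 and Acp5 at -0.07. Of 25 general macrophage genes 15 were lower (60%), with a median of -0.53, among them Adgre1, which encodes F4/80, at -1.27 and Cx3cr1, the fractalkine receptor, at -0.93.

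**Figure D4:**
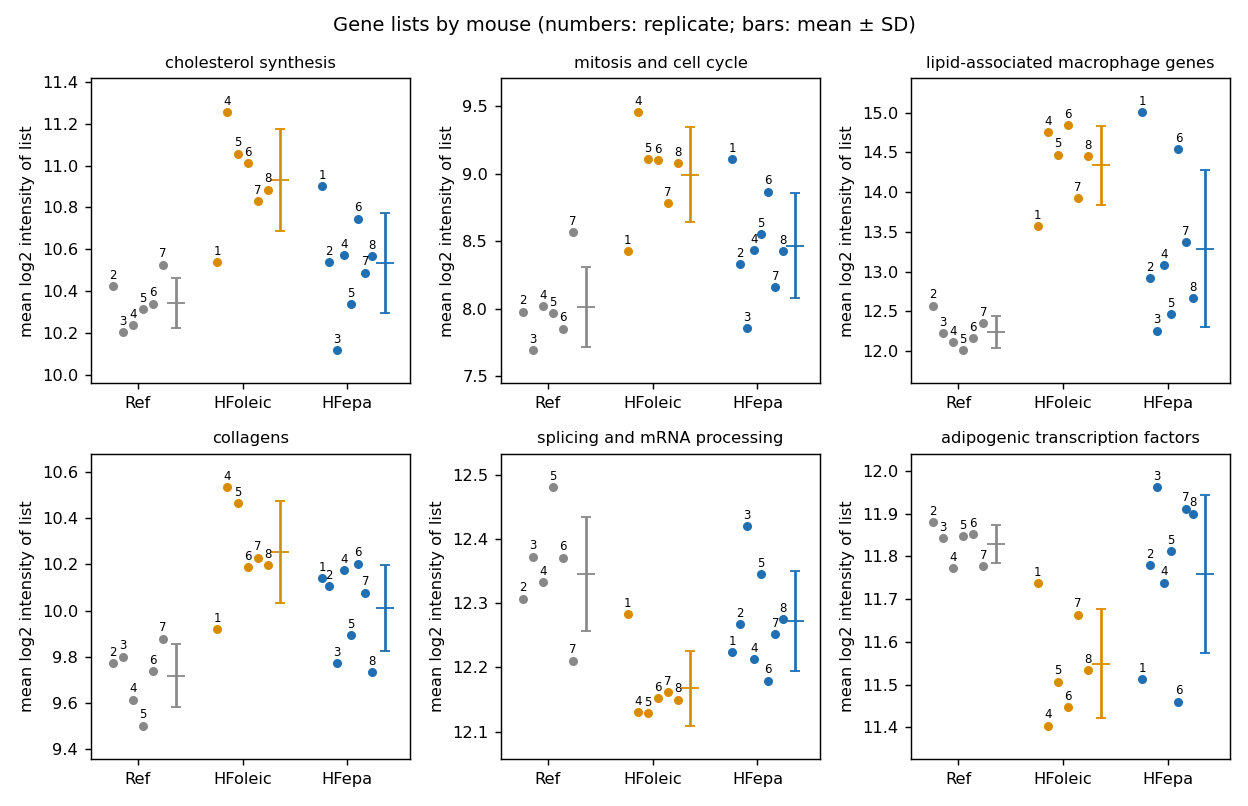
Mean log2 level of 6 gene lists in every mouse of the 3 groups, with replicate numbers and mean ± SD. HFepa 1 and HFepa 6 sit within or above the HFoleic range for macrophage, mitosis and cholesterol genes, and HFoleic 1 is the lowest of its group in these and the highest for splicing.

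The mean log2 level of the lipid-associated macrophage genes was 13.57, 14.76, 14.47, 14.85, 13.92 and 14.45 in HFoleic 1, 4, 5, 6, 7 and 8. It was 15.01, 12.92, 12.26, 13.08, 12.46, 14.55, 13.37 and 12.66 in HFepa 1 to 8. Of the 8 HFepa mice 6 were below all HFoleic mice, HFepa 6 was inside the HFoleic range and HFepa 1 above it. Without HFepa 1 the median of the list was -1.23 and 12 of its 20 genes were called lower, with 14 of the 25 general macrophage genes. Over all genes 1174 were called lower in that fit. Without HFoleic 1, 1 and 2 members of these 2 lists were called, beside 623 called higher and 495 lower over all genes. The 7 markers used to describe macrophages as a cell type, all of them also in the general macrophage list, were lower in 6 of 7, and their mean ran from 12.33 to 13.52 in HFoleic and from 11.29 to 13.54 in HFepa. Their part in the differences of the other lists was not tested. Within the slides the median of the lipid-associated list was -0.76, -1.48 and -1.19.

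Genes of immune signalling were lower in smaller shares. Saa3, an acute-phase protein made in inflamed fat, had log2 levels of 10.35, 13.79 and 15.16 in HFoleic and 7.05, 10.46 and 13.53 in HFepa. The low HFoleic mouse was HFoleic 1 and the high HFepa mice were HFepa 1 and HFepa 6. The log2 difference was -2.74. Il1rn, the antagonist of the interleukin-1 receptor, differed by -2.01, Ccl2, which draws monocytes, by -1.16, its receptor Ccr2 by -0.76 and Tlr7, a sensor of RNA, by -0.72. In the list of cytokines, toll-like receptors and inflammasome genes 14 of 42 were lower (33.3%) and 3 higher, and in that of chemokines and their receptors 11 of 45 were lower and 1 higher. Of the eicosanoid enzymes and receptors 10 of 34 were lower (29.4%) and 1 higher. These included Tbxas1, thromboxane synthase, at -0.98 (SE 0.36) and the leukotriene receptors Cysltr1 and Cysltr2 at -0.45 and -0.29, whereas the cyclooxygenases Ptgs1 and Ptgs2, with 0.05 (SE 0.09) and 0.15 (SE 0.35), did not pass. Ffar4, the receptor of long-chain n-3 fatty acids, had a log2 difference of 0.28 that did not pass the unadjusted threshold, and 1 of the 14 sensing receptors was lower and none higher.

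The lower collagens were those of fibrils, of their surface and of beaded filaments. Of 30 collagen genes 10 were lower (33.3%), none was higher, and the median log2 difference was -0.18. The 10 were Col1a1, Col1a2, Col3a1, Col5a1, Col5a2, Col6a1, Col6a2, Col6a3, Col12a1 and Col14a1. Col1a1, the main chain of fibrils, differed by -0.72 (SE 0.22), Col5a1, which sets fibril width, by -0.65 (SE 0.18) and Col6a2, of the beaded filaments around adipocytes, by -0.75 (SE 0.28). The chains Col4a1 and Col4a2 of the basement membrane had -0.08 and -0.15. The fibroblast markers were lower in 4 of 8, of which Col1a1 is itself a collagen of the list and Pi16, Cd34 and Lum are not, and their part in these differences was not tested. In the list of matrix proteases and inhibitors 9 of 33 were lower and 4 higher: Mmp13, a collagenase, had a log2 difference of -0.67, while Timp3, an inhibitor bound to the matrix, had 0.56 and Adamts1, which cleaves proteoglycans, 0.88. Podn, podocan, a small proteoglycan of the matrix, was higher by 0.70.

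Splicing factors stood on the higher side. Of 86 genes 29 were higher at an unadjusted p under 0.05 (33.7%, against 10.8% of all genes) and 1, Prpf19, was lower, with a median log2 difference of 0.10. The kinases Clk1 and Clk4, which phosphorylate SR proteins, had 0.26 and 0.28, Rbm5, a splicing regulator, 0.25, Hnrnpu 0.34 and Luc7l3 0.36. Clk1 ran from 11.73 to 12.15 in HFoleic and from 11.95 to 12.37 in HFepa on the log2 scale, with HFoleic 1 the highest of its group. Per mouse the mean of the list lay between 12.13 and 12.28 in HFoleic and between 12.18 and 12.42 in HFepa. Of the HFepa mice 6 were within the HFoleic range and 2, HFepa 3 and HFepa 5, were above it. The upper end of the HFoleic range was again HFoleic 1, the other 5 lying at 12.13 to 12.16. Of the enzymes of DNA methylation and histone modification 20 of 63 were higher (31.7%) and 3 lower, and 3 of them, Hdac4 and Kmt2a among these, did not overlap between the groups, against 0.152% of all genes higher without overlap. Setd1a, a histone methyltransferase, differed by 0.32 and Kansl1, of a histone acetyltransferase complex, by 0.36. With the slide as a block 5 splicing genes and 4 chromatin enzymes were called higher and none lower.

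Regulators of the adipocyte stood on the higher side too. Of 22 transcription factors that promote or restrain adipogenesis 5 were higher (22.7%) and none lower, and 19 had a positive log2 difference. The 5 were Ebf1, Ebf2, Cebpd at 0.74, Klf4 at 0.47 and Klf2, a restraining factor, at 0.42. Ebf1 and Ebf2, which act early in adipocyte commitment, had 0.47 and 0.42, and Pparg, the master regulator, 0.16, which did not pass. In 6 of the 8 HFepa mice the mean of the list was above all HFoleic mice. In the insulin and PI3K-AKT list 11 of 38 were higher (28.9%) and 3 lower. Irs2, an adaptor of the insulin receptor, had log2 levels of 12.02, 12.39 and 13.10 in HFoleic and 12.52, 13.10 and 13.57 in HFepa, and HFoleic 1 held the 13.10. Its log2 difference was 0.63 (SE 0.18). Grb10, an inhibitor of the receptor, differed by 0.57, Foxo1, the factor that AKT keeps out of the nucleus, by 0.19 and Akt2, the adipocyte's main AKT, by 0.25. Akt1, Gsk3b and Foxo3 had -0.00, -0.02 and 0.07 on their brightest probes, and their other probes reached 0.36, -0.32 and -0.22.

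Genes of fat storage and adipokines split by member. Lipe, hormone-sensitive lipase, had log2 levels of 12.56, 12.87 and 13.85 in HFoleic and 13.10, 13.73 and 14.02 in HFepa, a log2 difference of 0.68. Without counting HFoleic 1, at 13.85, every HFoleic mouse was below every HFepa mouse. These Lipe values are of its brightest probe, and a second Lipe probe had 0.18 and did not pass the unadjusted threshold. Dgat2, which adds the last acyl chain to triglyceride, went the other way, with 16.92, 17.42 and 17.77 in HFoleic and 15.65, 16.67 and 17.02 in HFepa, a log2 difference of -0.82. Pck1, which supplies glycerol phosphate in fat, differed by 0.71. In fatty acid synthesis 3 of 21 were higher and 4 lower. The carboxylases Acaca and Acacb had 0.56 and 0.92 on their brightest probes, and the desaturase Scd2 had -1.26. The 7 probes of Acaca ran from -0.004 to 0.56, and 3 of them passed the unadjusted threshold. The 3 probes of Acacb ran from 0.18 to 0.92, and 2 passed. Scd1, its most abundant relative in fat, had 0.03 on its brightest probe. A second Scd1 probe had 0.37 and passed the unadjusted threshold. Fads2, the desaturase of polyunsaturated fatty acids, had 0.10. Of 23 adipokines and receptors 7 were higher and 3 lower, with Nrg4, a secreted neuregulin, at 0.69, leptin (Lep) at -0.43 and chemerin (Rarres2) at -0.27. The adiponectin receptor Adipor1 had 0.15 and Adipor2 0.21, which did not pass on its brightest probe. The 3 probes of Adipor2 ran from 0.05 to 0.43, and 1 of them passed the unadjusted threshold. Secretin-family receptors had 4 of 14 higher, led by Sctr, the secretin receptor, at 0.84 and by Pth1r, and 1 lower, Vipr2, at -0.62, with 1 of its 3 probes at 0.12. Of the 8 adipocyte markers 3 were higher in HFepa, Lipe, given above, and the adipokines Cfd and Retn, which the adipokine list also holds, and their part in these differences was not tested.

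Of the genes that respond within hours, more were higher than lower; the hour at which each mouse was sampled is not given in the labels. Per2, a repressor of the clock, had log2 levels of 9.69, 10.004 and 10.12 in HFoleic and 10.05, 10.71 and 10.91 in HFepa. HFepa 6, at 10.05, was the one HFepa mouse inside the HFoleic range. The log2 difference was 0.68 (SE 0.13), with an adjusted p of 0.0257 with the slide as a block. Per1 was higher by 0.82 on its brightest probe, while a second probe had -0.12. A second Per2 probe had 0.13 and did not pass the unadjusted threshold. Csnk1e, the kinase that marks PER proteins for breakdown, differed by 0.32 on its brightest probe. Its 3 probes ran from 0.02 to 0.32, and 1 of them passed. Of 21 clock genes 5 were higher, 1 was lower and 4 were called higher with the slide as a block. Of 35 heat shock genes 8 were higher (22.9%) and 1 lower, and Hspa1b, an inducible HSP70, ran from 9.14 to 9.41 in HFoleic and from 9.41 to 10.89 in HFepa. Immediate early genes had 5 of 25 higher and 3 lower, with Fosl2 at 0.43 and Egr2, which macrophages also express, at -1.78.

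Respiratory chain and fatty acid oxidation genes passed the unadjusted threshold in smaller shares than all genes. Of 76 genes of the respiratory chain and ATP synthase 2 were higher and 1 lower, although 54 had a positive log2 difference, with a median of 0.05. Of 28 genes of fatty acid oxidation 1 was higher and none lower. In the TCA cycle and branched-chain amino acid list 6 of 40 were higher and 2 lower. Glycolysis had 6 of 22 lower (27.3%, against 10% of all genes) and 1 higher, with Aldoa, aldolase A, at -0.36 and Eno3, the muscle enolase, at 0.34. Of 19 thermogenic genes 5 were lower (26.3%) and 1 higher, the lower ones including the uncoupling protein genes Ucp2 at -0.72 and Ucp3 at -0.59. Ucp1, the uncoupler of brown and beige fat, was at 5.09 to 5.71 in HFoleic and at 5.20 to 6.23 in 7 of the 8 HFepa mice, and at 12.40 in HFepa 7. Its log2 difference of 1.14 therefore rested on 1 mouse.

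The HFepa mice differed more among themselves in most genes. The SD of log2 levels was larger in HFepa than in HFoleic in 18171 genes (70.9%), with a median of 0.182 against 0.146. The root mean square distance of a mouse from its group's mean over all probes tested, scaled for the size of the group, was 0.310 ± 0.0483 (SD, n = 8) in HFepa and 0.259 ± 0.0682 (SD, n = 6) in HFoleic. That difference of 0.0505 was within what an exact two-sided permutation test over the 3003 arrangements of the mice allows (p = 0.13). Without HFoleic 5 it was 0.0742 (exact permutation p = 0.028), and without HFoleic 8 it was 0.0286. The mice farthest from their group were HFepa 4 at 0.379, HFepa 1 at 0.378 and HFoleic 5 at 0.362, and the closest was HFoleic 8 at 0.173. By correlation over the probes 3 of the 8 HFepa mice had an HFoleic array as their nearest array, and 2 of the 6 HFoleic mice an HFepa array. The other mice had their nearest array in their own lineage, so the arrays sorted by lineage only in part, which was not tested.

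A large SD came from more than one set of genes. An SD over 1 was found in 477 genes in HFepa and in 367 in HFoleic, 270 of them in both. In 37 genes it was over 1 in HFepa and under 0.5 in HFoleic, and in 8 the reverse. Mmp7, matrilysin, and Ccdc153, a gene of ciliated cells, were both high in HFoleic 5, HFepa 4 and HFepa 7, with log2 levels of Mmp7 of 12.83, 12.50 and 10.33, and were at 5.005 to 5.51 for Mmp7 in the other 11. HFoleic 5 and HFepa 4 were also the mice with the highest testis markers, and the part of neighbouring tissue in these genes was not tested. Mmp12 ran from 6.35 in HFepa 3 to 13.76 in HFepa 1.

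Leaving out mice in turn showed which of them set the calls. Without HFepa 1, 792 genes by their brightest probe were called higher and 1174 lower, and without HFoleic 1 they were 623 and 495. Without HFepa 6, whose macrophage genes were also high, 1 gene was called higher and none lower. The genes without overlap numbered 574 when HFoleic 1 was left out, 182 without HFepa 1, 188 without HFepa 6, 159 without HFepa 4 and 154 without HFepa 2, against 91 with all mice. Fewer arrays separate more easily, so a higher count is likely when any HFepa or HFoleic mouse is left out. How much of each rise came from group size alone was not tested. HFoleic 1 was the lowest HFoleic mouse in the lists of cholesterol synthesis, both macrophage lists, collagens, mitosis and DNA replication. It was the highest in those of splicing and of the transcription factors of adipogenesis.

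**Figure D5:**
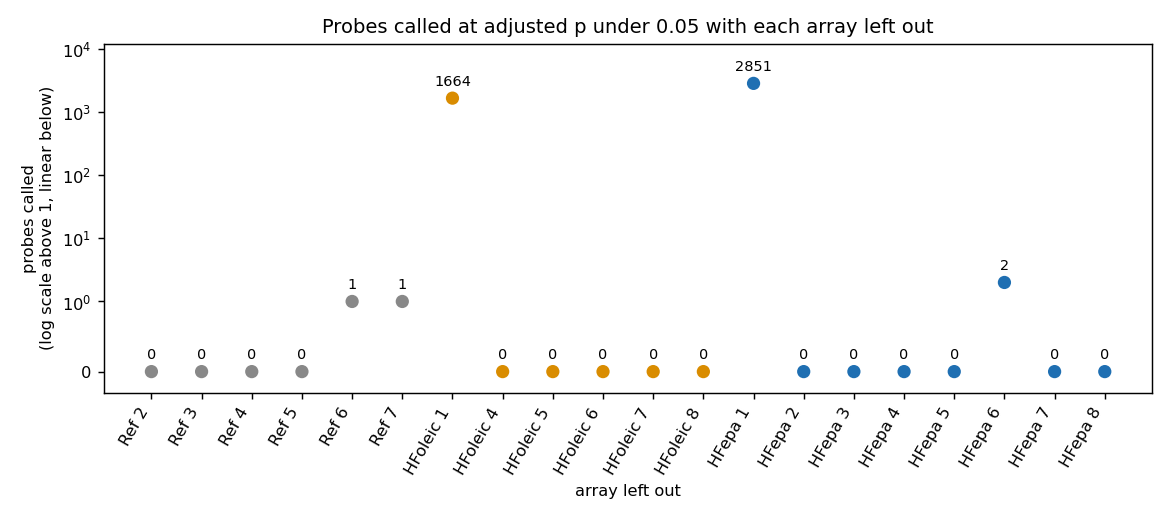
Number of probes called at an adjusted p under 0.05 when 1 array is left out, on a symmetric log axis, by the array left out. HFepa 1 (2851) and HFoleic 1 (1664) stand apart from all other arrays, which give 0 to 2.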

How the data were processed

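The data are 20 one-colour Agilent SurePrint G3 mouse arrays, grouped by their titles. Per the labels and the study's methods, the authors extracted spot intensities with Agilent Feature Extraction 10.10.1.1 (submitters' processing notes), and the deposited median intensity is linear and not normalized. The software's processed intensity, also deposited, is background-subtracted. The authors' deposited log2 values were filtered and quantile normalized by them. Flags of the software (other values in the deposited spot files) gave the spots above background and those marked as outliers.

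The files were read with the data.table package (version 1.17.8) and fitted with limma 3.58.1 in R 4.3.3, and figures were drawn with pandas 2.3.3 and matplotlib 3.10.9. Of 62976 spots, 59305 were not controls. Outlier spots were set missing on that array, which left 24 missing values among the probes tested, and spots of 1 probe were averaged. A probe was tested when well above background on at least 6 arrays, which kept 39390 of 56605. Log2 median intensities were quantile normalized without background correction and fitted on all 20 arrays with lmFit and eBayes, and the contrast was HFepa minus HFoleic with Benjamini-Hochberg adjustment. A gene is its brightest probe. The fit was tested on simulated data. The number of arrays limits the precision.

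The groups, 29 gene lists and 17 marker lists were chosen with earlier results of these data known. Genes were named by rule: probes called, the largest differences among genes without overlap, the smallest p in each direction, the smallest p of each list, genes the study discusses, and the largest SDs. Alternatives were other background corrections, scalings, filters, weights, slide or replicate number as a block, and each array left out. Replicate numbers did not pair mice: over 6 shared numbers the correlations of deviations ran from -0.587 to 0.559, 2 of them over 0.1. Of 37074 names in the files, 23666 are RefSeq symbols and 1110 older ones. Promoters came from RefSeq (GRCm38.p6), and no coordinate was converted between builds. Some results are not reported here.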

Additional observations from a re-analysis of the deposited data

Results flagged for a closer look

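Values of single mice that lay far from the rest of their group were sought in both groups over 300 sets of values (named genes, gene lists and cell type markers), by the gap to the nearest other mouse against the range of the group at Dixon's 95% limit. That limit is passed by about 1 group in 20 by chance, and 31 were found, 13 in HFepa and 18 in HFoleic. All values are log2 levels.

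HFoleic 1 held 9 of them. It was low in Scd2 (12.50), Hsd17b7 (9.71), Lep (8.76) and the chemokine list (9.06), and high in Clk4 (12.13), Eno3 (10.54), Acaca (14.36), Lipe (13.85) and the splicing list (12.28). HFepa 3 held 5, being low in Sc5d (12.12), Ndc1 (9.88), Anxa1 (14.49) and Hist1h2bm (13.17) and high in Tob2 (10.33).

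HFoleic 4 was high in Ndc1 (11.63) and Hist2h3b (9.51) and low in Scd1 (17.58) and the B cell markers (7.02). HFoleic 5 was high in Mmp7 (12.83), Ccdc153 (12.42), the epididymis markers (7.21) and the testis markers (8.51), and HFoleic 7 in Fosl2 (11.03). HFepa 7 was high in Ucp1 (12.40) and in the thermogenic list (9.72), HFepa 2 in the epididymis markers (8.62) and HFepa 4 in the testis markers (7.84). HFepa 8 was high in Pth1r (10.46) and low in the chemokine list (8.72), HFepa 1 was low in the fatty acid oxidation list (13.11) and HFepa 5 in Aldoa (16.97).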

How the results depend on the processing

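The count of probes called was 0 with the processed signal, with normexp, with median centring, with the HFepa and HFoleic arrays alone and within each of the 3 slides, 1297 with the slide as a block and 4527 with array weights. With 1 array left out it ran from 0 to 2851, and without Ref 2, 3, 4 or 5 it was 0. Genes at an unadjusted p under 0.05 numbered 1564, 1859 and 3623 within slides 1, 2 and 3, where the lone HFoleic array of slide 2 was assumed to vary like the others. Genes without overlap ran from 97 to 574 with 1 HFoleic or HFepa array left out, and the difference in distance to the group mean from 0.0286 to 0.0742. With the replicate number as a block 0 probes were called. The numbers did not pair the mice, 2 of 6 HFoleic and 1 of 8 HFepa arrays being best matched by their own number.

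List medians that moved by more than the spread between mice were those of the secretin-family receptors with the processed signal (0.21), of clock genes with a stricter filter (0.15) and of annexins within slide 1 (-0.020). Within slide 2 they were cholesterol synthesis (-0.65), adipokines (0.17), mitosis (-1.05), clock (0.18) and chromatin enzymes (0.13). HFoleic 4, the only HFoleic array there, was the highest HFoleic mouse in the cholesterol and mitosis lists. It was the lowest in the clock and chromatin lists, and neither in that of adipokines. Within slide 3 they were glycolysis (-0.24), adipokines (0.16), mitosis (-0.95), DNA replication (-0.37) and splicing (0.17). The cause was not tested. The sign of the median held in all 30 settings for every list but those of cholesterol efflux and LXR genes, fatty acid synthesis, fatty acid oxidation and thermogenic genes. Among the genes followed by name, 9 changed sign under some setting: Akt1, Gsk3b, Pparg, Ccdc153, Scd1, Foxo3, Fads2, Mmp7 and the bright Anxa6 probe.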

Other observations

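Other cell types of the tissue had few markers past the unadjusted threshold of 0.05, and none was called with Benjamini-Hochberg adjustment in limma. Of 6 natural killer cell markers 3 were lower in HFepa and none higher: Gzma, a granzyme of killer cells, had a log2 difference of -0.71 (SE 0.17), Klrk1, an activating receptor, -0.25 and Ncr1 -0.19. Of 5 dendritic cell markers 2 were lower, Flt3, the receptor of their growth factor, at -0.62 (SE 0.18) and Clec9a, of cross-presenting cells, at -0.46 (SE 0.15), and 1, the transcription factor Zbtb46, was higher at 0.53 (SE 0.15). S100a8, of neutrophils and monocytes, had a log2 difference of -1.36 (SE 0.50), whereas S100a9, its partner, had 0.23 (SE 0.25). T cell, B cell and smooth muscle markers had no member past that threshold in either direction.

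Of 5 erythroid markers 2 were higher, Alas2, the first enzyme of haem synthesis in red cells, at 0.68 (SE 0.20) and the beta globin gene Hbb-bt at 0.50 (SE 0.18). The mean log2 level of the mesothelial markers, which name the cells that cover the outer face of this fat pad, ran from 6.28 to 9.06 in HFoleic and from 7.0 to 9.69 in HFepa, so mice of both lineages differed in it by more than the lineages did. These markers were chosen for the cell types they name, and the members given here were chosen after their values were seen.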
